A study of Mus musculus with 21 samples.

Results

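HOX genes encode homeodomain transcription factors that set position along the body axis in the embryo and, in blood, help to hold stem and progenitor cells in an immature, self-renewing state. HOX proteins bind DNA together with partners of the TALE class, homeodomain proteins with a short amino acid loop extension, among them MEIS1 and PBX3, and the HOXA9-MEIS1 pair is a known driver of myeloid leukemia. In normal blood formation the HOXA genes and Meis1 are high in stem and progenitor cells and are switched off as myeloid cells mature.

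The genes described here are 5 HOXA genes (Hoxa3, Hoxa5, Hoxa7, Hoxa9 and Hoxa10) and 2 TALE genes (Meis1 and Pbx3). They were found by matching the mouse Ensembl identifiers of the count tables to these symbols, and all 7 were present among 45706 identifiers and among the 19555 genes that passed the filter on low counts. RNA was sequenced from 21 libraries of a mouse model of juvenile myelomonocytic leukemia, a childhood myeloproliferative disease driven by RAS pathway mutations, in which a gain-of-function allele of Ptpn11 (D61Y, encoding the phosphatase SHP2) is expressed in blood cells. Every fraction held 2 MxCre libraries, 2 Ptpn11D61Y/+ libraries and 3 libraries of terminally ill (stage 3, S3) MxCre;Ptpn11D61Y/+ mice. All mice, controls included, had received poly I:C, which switches on the interferon-responsive Mx1 promoter that drives Cre. MxCre controls carried Cre and no mutant allele, whereas Ptpn11D61Y/+ controls carried the mutant allele behind an uncut Neo-Stop cassette, so that they resemble mice with a single active copy. The Mx1 promoter is not specific to one cell type. The study places stage 3 at 7 or more months after poly I:C, and the ages of the sequenced mice were not given. The fractions were bone marrow (BM) cells sorted as lineage-negative, Sca1-positive and Kit-positive (LSK), the fraction that holds stem and early progenitor cells, and CD11b+ myeloid cells sorted from BM or from spleen.

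Ptpn11 itself did not overlap between the genotypes in LSK cells. It stood at 111 and 116 CPM (counts of a gene scaled to an effective library size of 1e6) in MxCre, at 64.1 and 60.5 CPM in Ptpn11D61Y/+, and at 153, 140 and 152 CPM in S3 animals 540, 815 and 768. In CD11b+ cells the means of the controls were in the other order, and S3 overlapped the controls in BM and Ptpn11D61Y/+ in spleen. In BM CD11b+ cells Ptpn11 was at 22.1 and 42.8 CPM in MxCre, 46.02 and 55 CPM in Ptpn11D61Y/+, and 62.7, 26.3 and 119 CPM in S3 animals 540, 815 and 640. Its spleen CD11b+ levels were 14.6 and 38.2, 62.3 and 35.3, and 91.9, 59.8 and 140 CPM in the same order. In the fit of all 21 libraries no genotype difference of Ptpn11 was called in any fraction (adjusted p from 0.0665 to 1). The fractions carried their sort markers unevenly. Kit, the stem cell factor receptor, was at 288 to 533 CPM in the LSK libraries and at 4.78 to 73.2 CPM in the CD11b+ libraries. Itgam, which encodes CD11b, was at 31.6 to 114 CPM in LSK and at 151 to 1665 CPM in CD11b+ cells. Ly6a, which encodes Sca1, did not follow the sort, with 42.5 to 76.1 CPM in LSK and up to 313 CPM in spleen CD11b+ cells of S3 animal 815.

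Some libraries stood apart or went against their labels. Of 3 libraries labelled as animal 540, that of LSK cells held Ddx3y, a Y-linked gene, at 5083 counts and Xist, the transcript of the inactive X of females, at 1 count. The BM CD11b+ library of that animal held 2780 counts of Xist and 173 of Ddx3y, and the spleen CD11b+ library 712 and 1275. BM CD11b+ MxCre replicate 2 also held both, with 2834 counts of Xist and 353 of Ddx3y. In spleen CD11b+ cells, the Ptpn11D61Y/+ replicate 1 held 4753 counts of Xist and none of Ddx3y, whereas replicate 2 held 1999 of Ddx3y and none of Xist. All 4 LSK control libraries were of the Y-positive kind, as was that of S3 animal 540, while those of S3 animals 815 and 768 were Xist-positive. In the 2 spleen CD11b+ Ptpn11D61Y/+ libraries, 10 neutrophil markers summed to 4489 and 8301 CPM, against 28800 to 142700 CPM in the other 12 CD11b+ libraries.

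The HOXA genes lie close together on the minus strand of chromosome 6 (GRCm38), with Hoxa5 inside the annotated span of Hoxa3: Hoxa3 at chr6:52169062-52213336, Hoxa5 at chr6:52201754-52204587, Hoxa7 at chr6:52214491-52221854, Hoxa9 at chr6:52223100-52231089 and Hoxa10 at chr6:52231197-52240854. Meis1 (chr11:18879817-19018985) and Pbx3 (chr2:34171457-34373142) are on other chromosomes, also on the minus strand. In the GENCODE M21 annotation, 20.4% of the exon bases of Hoxa7 are shared with the antisense transcript Hoxaas3. Hoxa3 shares 8.36% of its exon bases with the antisense transcript Hoxaas2 and 8.01% with the sense transcript Gm28308, and the precursor of the microRNA Mir196b lies within an exon of Hoxa9. Meis1 shares 9.77% with Gm37818 on its own strand. Whether counting used strand was not given in the sources used here, so reads of these shared bases cannot be assigned with certainty.

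A promoter window was found in RefSeq (GRCm38.p6) for 6 of the 7 genes, with 2 windows for Hoxa10. The bases before the start site are shown for Hoxa9 and Meis1, the members with the most reads in LSK cells, and for Hoxa10, the next gene of the cluster. They are read 5′ to 3′ on the minus strand and exclude annotated exons. Capitals mark TTTAT (the core of sites for CDX and posterior HOX proteins) and TGTGGT (the core of RUNX sites), searched on both strands.
Hoxa9, chr6:52227371-52227620: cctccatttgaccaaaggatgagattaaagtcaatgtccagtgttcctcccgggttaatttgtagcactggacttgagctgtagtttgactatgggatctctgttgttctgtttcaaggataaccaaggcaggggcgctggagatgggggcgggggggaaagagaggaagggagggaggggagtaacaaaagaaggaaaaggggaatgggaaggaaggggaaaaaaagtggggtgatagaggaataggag
Hoxa10, chr6:52240855-52241104: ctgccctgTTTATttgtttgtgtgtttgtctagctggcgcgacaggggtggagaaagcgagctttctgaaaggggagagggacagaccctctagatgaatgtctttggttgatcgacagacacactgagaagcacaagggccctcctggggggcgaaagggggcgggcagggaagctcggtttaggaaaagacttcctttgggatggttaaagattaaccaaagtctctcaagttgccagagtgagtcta
Meis1, chr11:19018986-19019219: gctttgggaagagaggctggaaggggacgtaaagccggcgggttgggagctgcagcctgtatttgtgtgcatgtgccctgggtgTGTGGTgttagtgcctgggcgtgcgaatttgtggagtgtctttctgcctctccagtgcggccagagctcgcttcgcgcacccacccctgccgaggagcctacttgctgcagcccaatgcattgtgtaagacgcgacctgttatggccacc
TTTAT was present in 3 of the 7 windows of 250 bases (both of Hoxa10 and that of Hoxa7), and in 37.3% of all 32851 windows. TGTGGT was present in the Meis1 window alone and in 14% of all windows. TGACAG, the core of MEIS sites, was present in the Hoxa3 window and in 15.9% of all, and TGATNNAT, a joint HOX-PBX site, was in none of the 7 and in 7.68% of all. GC content ran from 49.6% for Hoxa9 to 64.8% for Hoxa3, around a median of 52.4% for all windows.

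The first comparison was between fractions: 6 of the 7 genes were abundant in LSK cells and low in CD11b+ cells, and Pbx3 was not. Per exon length, Meis1 was the most abundant member in MxCre LSK cells, at 12.0 ± 0.0353 RPKM (reads per kilobase of exon, scaled as CPM; SD, n = 2). Hoxa9 followed at 11 ± 0.0517, Hoxa7 at 8.86 ± 0.102 and Hoxa5 at 5.93 ± 0.323 RPKM. Hoxa10 at 2.56 ± 0.0413, Hoxa3 at 1.71 ± 0.110 and Pbx3 at 1.02 ± 0.137 RPKM closed the order. In these LSK cells each step of the order was larger than the spread of its neighbours. In Ptpn11D61Y/+ LSK cells Hoxa9 (9.65 ± 0.346 RPKM) and Hoxa7 (8.70 ± 1.03 RPKM) did not differ beyond their spread, and in S3 LSK cells Meis1 (6.90 ± 0.836), Hoxa7 (6.12 ± 0.632) and Hoxa9 (5.96 ± 0.726 RPKM, n = 3) did not. In 13 of the 14 CD11b+ libraries Pbx3 had the highest RPKM of the 7 genes, with group means from 1.42 ± 0.251 in BM Ptpn11D61Y/+ to 2.63 ± 0.439 in spleen S3. In BM CD11b+ cells of MxCre mice it did not differ from Hoxa5 beyond the spread (1.60 ± 0.296 and 1.21 ± 1.19 RPKM), and replicate 1 held more Hoxa5 (2.05 RPKM) than Pbx3 (1.81 RPKM). Nor did these genes differ beyond the spread in spleen CD11b+ cells of MxCre mice (Pbx3 2.24 ± 1.54 and Hoxa5 0.84 ± 0.86 RPKM).

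**Figure D1:**
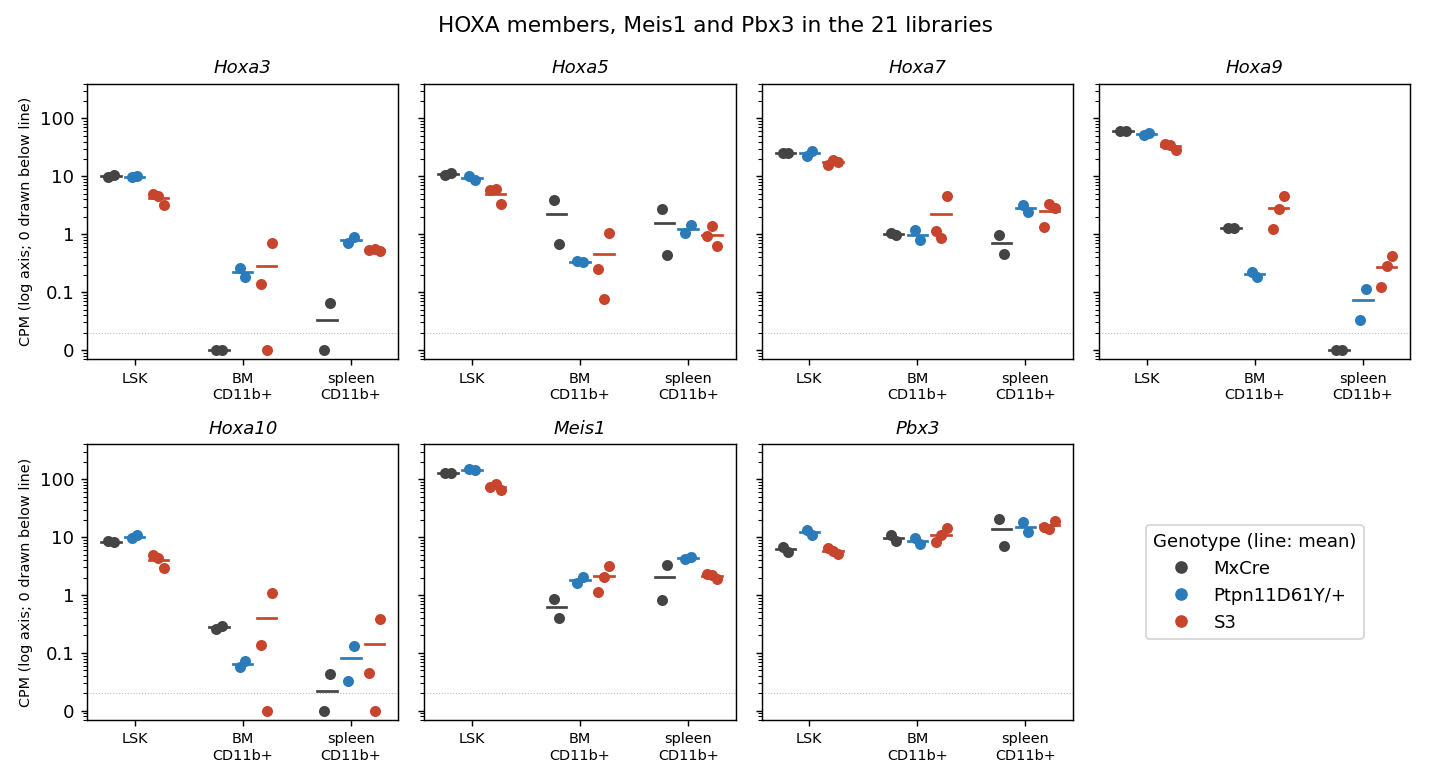
CPM on a log axis of each of the 7 genes in the 21 libraries, grouped by fraction and coloured by genotype. Points are libraries and short lines are group means, with values of 0 drawn below the dotted line. Hoxa3, Hoxa5, Hoxa7, Hoxa9, Hoxa10 and Meis1 are higher in every LSK library than in any CD11b+ library of the same genotype, whereas Pbx3 stays between 5.02 and 20.3 CPM throughout.

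Hoxa9, the HOXA member most tied to myeloid leukemia, was at 61.6 and 61.1 CPM in the 2 MxCre LSK libraries, at 1.31 and 1.27 CPM in BM CD11b+ and at 0 counts in both spleen CD11b+ libraries. The LSK level was at least 805-fold above the spleen level, taking 3 counts per library as the limit of detection. In Ptpn11D61Y/+ mice Hoxa9 was at 52.5 and 55.2 CPM in LSK, 0.227 and 0.183 CPM in BM CD11b+, and 0.0325 and 0.115 CPM in spleen CD11b+. In S3 mice it was at 36.6, 34.4 and 28.8 CPM in LSK, at 1.25, 2.73 and 4.53 CPM in BM CD11b+ (animals 540, 815 and 640), and at 0.121, 0.281 and 0.424 CPM in spleen CD11b+. The 3 fractions did not overlap in any genotype, with LSK highest and spleen lowest. The share of all tested genes that do not overlap between fractions is not given here.

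Meis1, the TALE partner that stabilises HOXA9 on DNA, was at 126 and 127 CPM in MxCre LSK cells. Its BM CD11b+ level was 0.858 and 0.398 CPM and its spleen CD11b+ level 0.813 and 3.27 CPM. In S3 mice Meis1 stood at 72.2, 81.6 and 64.1 CPM in LSK, at 1.13 to 3.14 CPM in BM CD11b+ and at 1.86 to 2.35 CPM in spleen CD11b+. The drop from LSK to BM CD11b+ was 7.67 ± 0.682 log2 units in MxCre (adjusted p = 2.27e-05) and 5.09 ± 0.488 in S3 (adjusted p = 1.59e-05).

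In MxCre mice 5 of the 7 genes fell from LSK to BM CD11b+ cells, beside a call for 36.9% of all tested genes (20.3% lower). The exceptions were Hoxa5, with a log2 fold change of -2.30 ± 1.01 (adjusted p = 0.0812), and Pbx3, with 0.65 ± 0.46 (adjusted p = 0.265). This Hoxa5 change was called with library size alone (adjusted p = 0.0249), by limma-voom (adjusted p = 0.0138) and by DESeq2 (adjusted p = 0.033). From LSK to spleen CD11b+ cells of MxCre mice 6 fell, beside 41.6% of all genes called. In Ptpn11D61Y/+ mice 6 fell in BM CD11b+ (19.7% of all genes called) and 5 in spleen CD11b+ cells (18.1%), where Hoxa5 did not pass, with -2.90 ± 1.03 (adjusted p = 0.0612). It was called at -2.87 to -3.42 under 5 alternatives, namely library size alone (adjusted p = 0.0473), the groups compared alone (adjusted p = 0.00487), limma-voom (adjusted p = 0.0121), DESeq2 (adjusted p = 0.00643) and the replicate number as a block (adjusted p = 0.00323). In S3 mice 5 fell in BM CD11b+ (27.1% of all genes called), where Hoxa10 did not pass, with -3.26 ± 1.20 (adjusted p = 0.0532). With the animal as a block (animals 540 and 815 gave both fractions), Hoxa10 was called, at -6.48 (adjusted p = 0.0127). It was also called with library size alone (adjusted p = 0.0457), by limma-voom (adjusted p = 0.00338), by DESeq2 (adjusted p = 0.00817) and without the BM library of animal 640 (-5.69, adjusted p = 0.00662). In spleen CD11b+ cells of S3 mice 6 fell and Pbx3 rose (27.4% of all genes called). The median of the 7 changes was -4.91 in MxCre BM CD11b+ and -2.99 in S3 spleen CD11b+ cells, where that of all tested genes was -0.28 and 0.02. Low counts limit the size of these folds: Hoxa3 was at 0 counts in both BM CD11b+ MxCre libraries, which puts the LSK level at least 92.0-fold higher. Hoxa10 had 2 counts in all in spleen CD11b+ MxCre libraries, a ratio of 356 with a 95% counting interval from 98.5 to 2940. Intervals and detection limits cover counting error alone.

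Several of these calls rested on both libraries of a control pair. Leaving out either BM CD11b+ Ptpn11D61Y/+ library left 3 members called of 6 (Hoxa3, Hoxa5 and Hoxa10 were lost), while the share of all genes called fell from 19.7% to 5.50% or 6.97%. Leaving out 1 library of the spleen or LSK pair of that genotype left 2 or 3 of 5, with 4.49% to 8.04% of all genes called in place of 18.1%. In spleen CD11b+ cells of S3 mice 4 of 7 were called without the library of animal 540 (17.8% of all genes), without the 3 libraries that held both Xist and Y-linked reads (19.8%) or with the animal as a block (26.3%), beside 27.4% in the fit of all libraries. The differences kept their sign each time.

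Pbx3, a PBX-class partner of HOX proteins, was not lower in CD11b+ cells of S3 mice. In these mice it was at 6.56, 5.67 and 5.02 CPM in LSK, at 8.08, 10.7 and 14.3 CPM in BM CD11b+, and at 14.97, 14.1 and 19.1 CPM in spleen CD11b+ cells. Every CD11b+ library of S3 mice was above every LSK library of S3 mice, and the share of all genes that separate in this way is not given here. Beside 15.8% of all genes called higher, the spleen CD11b+ level was 1.48 ± 0.381 log2 units above LSK (adjusted p = 0.010). This was 0.89 (adjusted p = 0.149) with no scaling beyond library size, 1.26 (adjusted p = 0.0546) with the animal as a block and 1.37 (adjusted p = 0.0532) without the LSK library of animal 768. In MxCre mice Pbx3 was at 6.80 and 5.62 CPM in LSK and at 20.3 and 7.06 CPM in spleen CD11b+ (log2 fold change 1.14 ± 0.463, adjusted p = 0.0576), and was called without spleen replicate 2 (1.69, adjusted p = 0.0142), which leaves 1 library. In Ptpn11D61Y/+ mice LSK and spleen CD11b+ cells overlapped, at 13.2 and 11 against 18.2 and 12.1 CPM, and BM CD11b+ cells were below LSK, at 9.77 and 7.60 CPM (adjusted p = 0.488).

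Between spleen and BM CD11b+ cells, Hoxa9 was the member that differed. It was lower in spleen in MxCre mice, where its spleen libraries were at 0 counts (adjusted p = 0.0111, with 0.915% of all genes called), and in S3 mice, by 3.35 ± 0.513 log2 units (adjusted p = 0.030, with 0.0563% of all genes called). In Ptpn11D61Y/+ mice, where 3.69% of all genes were called, the change was -1.46 ± 0.708 (adjusted p = 0.269). No other member passed in any genotype. The S3 call was lost without the spleen library of animal 540 (adjusted p = 0.207), without that of animal 815 (adjusted p = 0.143), without the BM library of animal 815 (adjusted p = 0.0747), without the 3 libraries that held both Xist and Y-linked reads (adjusted p = 0.0576) and with the animal as a block (adjusted p = 0.167). It was also lost with library size alone (adjusted p = 0.0746), with limma-voom (adjusted p = 0.0641) and with the groups compared alone (adjusted p = 0.866). The MxCre call was lost without spleen replicate 1 (adjusted p = 0.0861), with the replicate number as a block (adjusted p = 0.144) and with the groups compared alone (adjusted p = 0.742). DESeq2 called both.

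The central comparison was whether the HOXA-TALE genes of LSK cells differ in leukemic mice. In LSK cells 6 of the 7 genes were lower in each of the 3 S3 libraries than in each of the 4 control libraries, and Pbx3 was lower than in the Ptpn11D61Y/+ libraries alone. Of all tested genes 18.7% were lower, and 22.4% higher, in each S3 library than in each control library. Hoxa9 averaged 61.3 ± 0.288 CPM in MxCre (SD, n = 2) and 33.3 ± 4.05 CPM in S3 (n = 3), and Meis1 averaged 127 ± 0.372 and 72.6 ± 8.80 CPM. The calls depended on which libraries entered the fit. With all 21 libraries in one edgeR fit no member passed, beside 0.0307% (against MxCre) and 0.0972% (against Ptpn11D61Y/+) of all genes called. With the 7 LSK libraries alone 6 passed against MxCre and 7 against Ptpn11D61Y/+, beside 31.3% and 37.1% of all genes called.

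**Figure D2:**
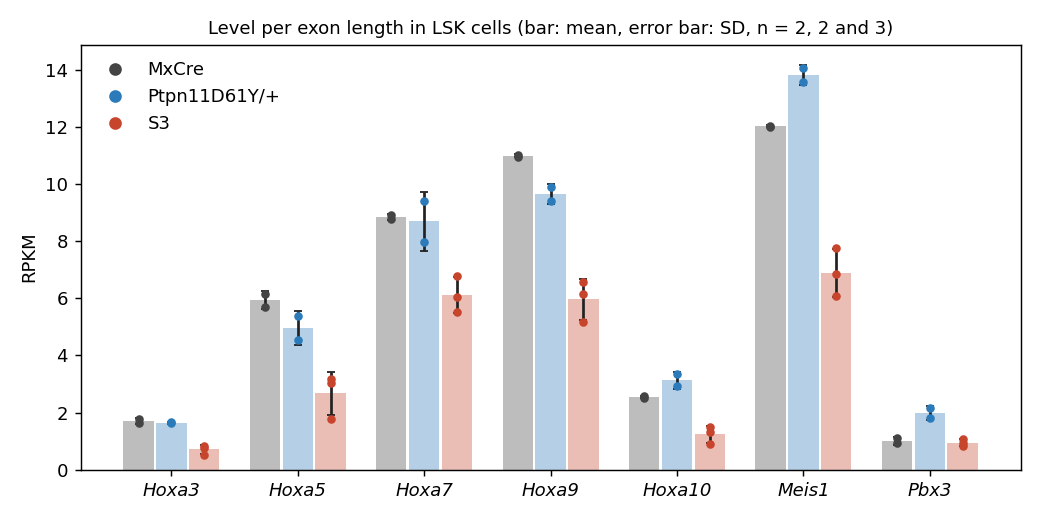
RPKM in LSK cells on a linear axis for the 7 genes, with the HOXA genes in cluster order. Bars are means of MxCre (n = 2), Ptpn11D61Y/+ (n = 2) and S3 (n = 3), error bars are SD and points are libraries. The S3 bars are the lowest of their gene, from 0.708 RPKM for Hoxa3 to 6.90 RPKM for Meis1, and for Pbx3 the S3 and MxCre libraries overlap.

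The values behind this are given next for LSK cells. Hoxa3, at the anterior end of the members, was at 9.83 and 10.8 CPM in MxCre, 9.72 and 10.04 CPM in Ptpn11D61Y/+, and 4.97, 4.63 and 3.18 CPM in S3 animals 540, 815 and 768. Hoxa5 was at 10.7 and 11.6, 10.1 and 8.502, and 5.71, 5.97 and 3.36 CPM in the same order. Hoxa7 was at 25.3 and 25.7, 22.9 and 27.1, and 15.9, 19.5 and 17.4 CPM. The S3 libraries lay below the controls for all 3 genes, and animal 768 was the lowest for Hoxa3 and Hoxa5. Hoxa10, which with Hoxa9 belongs to the posterior, AbdB-like group, was at 8.45 and 8.26, 9.53 and 10.9, and 4.89, 4.30 and 2.94 CPM. Meis1 was at 126 and 127, 148 and 143, and 72.2, 81.6 and 64.1 CPM. Pbx3 was at 6.80 and 5.62, 13.2 and 11, and 6.56, 5.67 and 5.02 CPM, so that Ptpn11D61Y/+ stood apart from both other genotypes. The S3 library of animal 540 was Y-positive like the controls, and those of animals 815 and 768 were Xist-positive. The part of sex in these levels was not tested.

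In the fit of all 21 libraries, S3 against MxCre gave log2 fold changes of -1.27 ± 0.905 for Hoxa3, -1.15 ± 0.863 for Hoxa5 and -0.53 ± 0.578 for Hoxa7. Those of Hoxa9, Hoxa10 and Meis1 were -0.88 ± 0.498, -1.05 ± 1.20 and -0.80 ± 0.451, and that of Pbx3 was -0.11 ± 0.416. The median of the 7 was -0.88 against 0.01 for all tested genes. None passed (adjusted p = 1 for each), beside 0.0307% of all tested genes called, and none had an unadjusted p under 0.05, beside 777 of all genes. Against Ptpn11D61Y/+, with the same S3 libraries, all 7 were lower in every S3 library, as were 27.5% of all tested genes. The median of the 7 was -1.002. None was called, beside 0.0972% of all genes, and 2 had an unadjusted p under 0.05, beside 1123 of all genes. Between the controls, Ptpn11D61Y/+ against MxCre gave a median of -0.03 with none called (0.0614% of all genes). The largest of these control differences was that of Pbx3, at 0.96 ± 0.461 log2 units.

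In the fit of the 7 LSK libraries, which was added after seeing the data, 6 members fell in S3 against MxCre, beside a call for 31.3% of all tested genes (15% lower). Hoxa3 fell by 1.28 ± 0.194 log2 units (adjusted p = 0.00409), Hoxa5 by 1.16 ± 0.246 (adjusted p = 0.0124) and Hoxa7 by 0.54 ± 0.112 (adjusted p = 0.0111). Hoxa9 fell by 0.89 ± 0.107 (adjusted p = 0.00242), Hoxa10 by 1.05 ± 0.213 (adjusted p = 0.00992) and Meis1 by 0.81 ± 0.107 (adjusted p = 0.00295). Pbx3 did not pass, with -0.12 ± 0.171 (adjusted p = 0.632). Against Ptpn11D61Y/+ all 7 fell, by 0.52 ± 0.112 (Hoxa7) to 1.35 ± 0.213 (Hoxa10), with 37.1% of all genes called (17.6% lower). Pbx3 fell there by 1.09 ± 0.168 (adjusted p = 0.00368). Between the control genotypes no member was called (1.77% of all genes), and Pbx3 was nearest, with 0.98 ± 0.188 (adjusted p = 0.0513). A fit of the 2 groups compared alone called 6 against MxCre and 7 against Ptpn11D61Y/+, beside 26.8% and 29.2% of all genes, and between the controls Pbx3 alone, beside 14.2%. In the fit of the 7 LSK libraries, leaving out either MxCre library left 3 members called against MxCre, namely Hoxa3, Hoxa9 and Meis1, while the share of all genes called fell from 31.3% to 6.41% and 9.62%. Leaving out any S3 library left 6, with 26.6% to 34.9% of all genes called. Against Ptpn11D61Y/+, leaving out replicate 1 or 2 left 6 or 5 (15.8% or 13.4% of all genes), and leaving out any S3 library left 7 (32.3% to 39.7%).

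**Figure D3:**
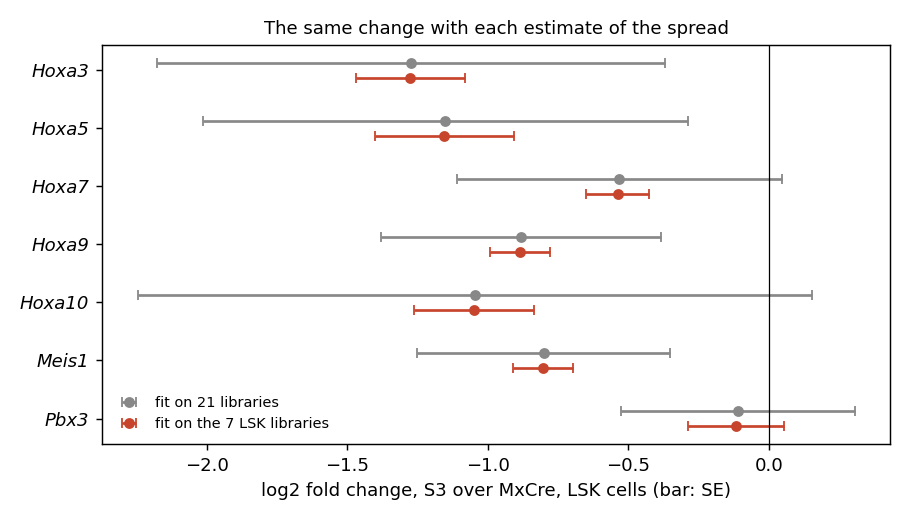
log2 fold change of S3 over MxCre in LSK cells for the 7 genes, with SE, in the fit of all 21 libraries (grey) and of the 7 LSK libraries (red). The estimates nearly coincide, at -0.88 and -0.89 for Hoxa9, while the SE of Hoxa9 is 0.498 in the first fit and 0.107 in the second.

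The fits differ in the spread they use, and also in their scaling and in the genes tested (19555 and 18057). The SD of Hoxa9 around its group means was 0.13 log2 units in LSK, 0.664 in BM CD11b+ and 0.733 in spleen CD11b+ libraries, and that of Hoxa10 was 0.278, 1.91 and 1.59. For the median tested gene the same SD was 0.185, 0.879 and 0.744, and in LSK cells Hoxa3 (0.247), Hoxa5 (0.339), Hoxa10 and Pbx3 (0.191) were above that median. In bulk RNA, fewer cells of a kind and less RNA per cell cannot be told apart, and other genes of immature cells also moved in the fit of the 7 LSK libraries. Of 10 stem and progenitor markers 5 fell and 1 rose in S3 against MxCre, beside 15% of all genes lower and 16.3% higher. Among them Hlf, a stem cell transcription factor, changed by -1.32 ± 0.3 log2 units (adjusted p = 0.0242), Mecom by -0.93 ± 0.272 (adjusted p = 0.047), Flt3 by -0.82 ± 0.177 (adjusted p = 0.0148) and Kit by -0.44 ± 0.0935 (adjusted p = 0.0115), while Gata2 rose by 0.38 ± 0.0974 (adjusted p = 0.0231). Against Ptpn11D61Y/+ 6 of the 10 fell and none rose, with a median of -1.15, beside -1.02 for the 7 members in that comparison. Of all genes 17.6% fell and 19.5% rose there. The marker median against MxCre was -0.63, beside -0.89 for the members. The 10 markers summed to 1830 and 1895 CPM in MxCre, 1850 and 1971 CPM in Ptpn11D61Y/+, and 1496, 1359 and 1291 CPM in S3, with Cd34 the most abundant in S3 and no marker at 0. The 5 HOXA members summed to 116 and 117, 105 and 112, and 68.1, 68.8 and 55.7 CPM. They were 6.33% and 6.20% of the marker sum in MxCre, 5.66% and 5.67% in Ptpn11D61Y/+, and 4.55%, 5.06% and 4.31% in S3.

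Markers of more mature cells moved as well. In the same fit all 6 granule precursor genes (Mpo, Elane, Prtn3, Ctsg, Ms4a3 and Cebpe) rose in S3 against MxCre, with a median of 1.52. Mpo, their most abundant, was at 1178 and 1032 CPM in MxCre, 1567 and 1526 CPM in Ptpn11D61Y/+, and 3192, 2624 and 3819 CPM in S3. Against Ptpn11D61Y/+ 4 of the 6 rose, with a median of 1.003. Of 6 megakaryocyte genes 4 rose against MxCre, with a median of 1.51. Against Ptpn11D61Y/+ 1 rose and 1 fell, with a median of -0.14, and in Ptpn11D61Y/+ against MxCre 2 rose, with a median of 1.72. Neutrophil genes were highest in MxCre LSK libraries, where 10 of them summed to 2815 and 2359 CPM, against 252 and 182 CPM in Ptpn11D61Y/+ and 691, 1444 and 934 CPM in S3. S100a9 was the most abundant of them in all 7 libraries and none was at 0. Of the 10, 6 fell in S3 against MxCre, and against Ptpn11D61Y/+ all 10 rose. Of 10 monocyte genes 1 fell against MxCre and 6 rose against Ptpn11D61Y/+. Of 10 erythroid genes 6 fell and 1 rose, of 6 B cell genes 2 fell, and of 7 T and NK cell genes 1 rose and 1 fell, against MxCre, where 16.3% of all genes rose and 15% fell. The erythroid genes were high in MxCre, since 6 of the 10 were also lower in Ptpn11D61Y/+ than in MxCre and none was called in S3 against Ptpn11D61Y/+, with medians of -3.50 and 0.21. Against Ptpn11D61Y/+ 1 B cell gene and 1 T and NK cell gene rose and none fell, where 19.5% of all genes rose and 17.6% fell. Between the controls, Ptpn11D61Y/+ against MxCre, 0.454% of all genes rose and 1.31% fell. The part of these cell markers in the lower HOXA and Meis1 levels was not tested.

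**Figure D4:**
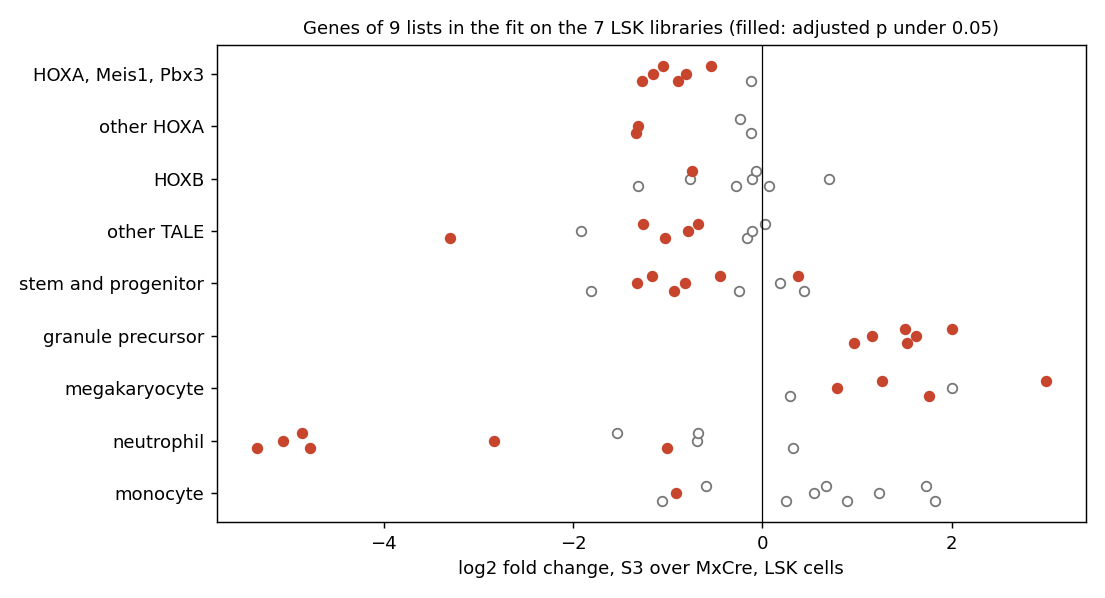
log2 fold change of S3 over MxCre in LSK cells for genes of 9 lists in the fit of the 7 LSK libraries. Each point is a gene, and filled points passed an adjusted p of 0.05. The HOXA, Meis1 and Pbx3 row lies below 0 with 6 of 7 filled, the granule precursor row lies above 0 with 6 of 6 filled, and the HOXB row spreads around 0 with 1 of 8 filled.

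The rest of the HOX and TALE family was followed in the same LSK libraries. Beside 15% of all tested genes, 2 of the other HOXA genes fell in S3 against MxCre. These were Hoxa2, by 1.34 ± 0.305 log2 units (adjusted p = 0.015), and Hoxa6, by 1.31 ± 0.311 (adjusted p = 0.0177), with group means of 1.08 and 0.429 CPM and of 5.02 and 2.02 CPM in MxCre and S3. Hoxa4 (-0.12 ± 0.228) did not pass. Of 3 noncoding transcripts of the cluster 2 fell. Hoxaas2 fell by 1.67 ± 0.245 (adjusted p = 0.00373) and Hoxaas3 by 0.90 ± 0.278 (adjusted p = 0.0424), while Hotairm1 was at 0.34 ± 0.479 (adjusted p = 0.613). Hoxaas2 and Hoxaas3 share exon bases with members (15% of the exon bases of Hoxaas2 with Hoxa3, and 10.3% and 20.3% of those of Hoxaas3 with Hoxa3 and Hoxa7), and without strand the reads of the shared bases cannot be told apart.

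The HOXB genes were followed beside them. Against MxCre 1 of 8 tested HOXB genes fell in S3, Hoxb3 by 0.74 ± 0.217 (adjusted p = 0.0359), with a median of -0.19, beside 15% of all genes lower. Hoxb4, a stem cell factor and the HOXB gene with the most reads, was at 7.55 ± 0.296 CPM in MxCre, 9.18 ± 0.508 CPM in Ptpn11D61Y/+ and 7.26 ± 1.36 CPM in S3. Against Ptpn11D61Y/+ 6 of 8 fell, beside 17.6% of all genes, with a median of -1.61, among them Hoxb5 by 1.80 (adjusted p = 0.00259) and Hoxb8 by 2.96 (adjusted p = 0.0378). The Ptpn11D61Y/+ libraries were the high ones: Hoxb8 averaged 3.00 ± 1.67 CPM there, 0.468 ± 0.299 CPM in MxCre and 0.390 ± 0.298 CPM in S3. Whether HOXA and HOXB differ in their change was not tested. Of the HOXC genes 2 and of the HOXD genes none passed the filter on low counts in LSK cells, and neither HOXC gene was called.

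Of 9 other TALE genes 5 fell in S3 against MxCre in LSK cells, with a median of -0.78, beside 15% of all genes lower and 16.3% higher. Meis3 fell by 1.27 ± 0.222 (adjusted p = 0.00622), Pbx4 by 0.78 ± 0.137 (adjusted p = 0.00618), Tgif1, a TALE repressor, by 0.68 ± 0.129 (adjusted p = 0.00808) and Tgif2 by 1.03 ± 0.189 (adjusted p = 0.00716), while Pknox2 fell from a low level (-3.30 ± 0.579, adjusted p = 0.00618). Against Ptpn11D61Y/+, with the same S3 libraries, 4 fell and 1 rose, with a median of -0.34, beside 17.6% of all genes lower and 19.5% higher. Among those, Meis3 fell by 1.95 ± 0.222 (adjusted p = 0.00175) and Pbx4 by 0.60 ± 0.137 (adjusted p = 0.0132), and Pknox1 rose by 0.34 ± 0.0899 (adjusted p = 0.0225), whereas Tgif1 (-0.34 ± 0.13), Tgif2 (0.05 ± 0.192) and Pknox2 (2.13 ± 1.09) did not pass.

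Among 10 genes of complexes that keep HOXA genes active, 2 fell in S3 LSK cells against MxCre and none rose, where 15% of all tested genes fell and 16.3% rose. Kmt2a, which encodes the histone methyltransferase MLL, fell by 0.72 ± 0.111 (adjusted p = 0.00421) and Aff4, a member of the super elongation complex, by 0.48 ± 0.0699 (adjusted p = 0.00373). Against Ptpn11D61Y/+ Kmt2a was at 0.07 (adjusted p = 0.642), and 1 gene fell, Mllt3, by 1.15 (adjusted p = 0.00345), with 4 higher. Of 12 Polycomb genes, whose products silence HOX genes, 3 rose and 3 fell in each comparison, beside 16.3% of all genes higher and 15% lower against MxCre, and 19.5% and 17.6% against Ptpn11D61Y/+. Ezh2, Suz12 and Jarid2 rose by 0.25, 0.34 and 0.42, and Ezh1, Pcgf2 and Cbx7 fell by 0.39, 0.55 and 1.03 against MxCre. Of 10 known targets of HOXA9 and MEIS1 4 fell (Erg by 0.73 ± 0.0811, Sox4 by 0.89 ± 0.162, Flt3 and Lmo2) and 1 rose, Bcl2, by 0.52 ± 0.0946, while Myb, at 0.02 ± 0.112, did not pass. Against Ptpn11D61Y/+ 2 fell, Erg by 0.76 ± 0.0811 and Lmo2 by 0.55 ± 0.0647, and 3 rose, Bcl2 by 0.38 ± 0.0942, Cdk6 by 0.39 ± 0.104 and Myc by 0.40 ± 0.124, with a median of 0.05 for the 10. Flt3 (0.04 ± 0.179) and Sox4 (-0.41 ± 0.163) did not pass there.

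In CD11b+ cells the genotypes were compared next, at levels where most HOXA genes gave few reads. In the BM CD11b+ cells no member was called in S3 against MxCre, in S3 against Ptpn11D61Y/+ or in Ptpn11D61Y/+ against MxCre, and in each of these 0% of all genes was called by edgeR, with 3022, 1608 and 4419 genes at an unadjusted p under 0.05. DESeq2 called 2, 1 and 3 members in these, beside 5.4%, 1.68% and 10.7% of all genes. Of the members, Hoxa9 showed the clearest separation. The share of all tested genes that separate between genotypes was taken in LSK cells alone, so separations in CD11b+ cells have no background beside them. Its Ptpn11D61Y/+ libraries (0.227 and 0.183 CPM) lay below the MxCre libraries (1.31 and 1.27 CPM) and below the S3 libraries (1.25, 2.73 and 4.53 CPM). S3 was above Ptpn11D61Y/+ by 3.78 ± 0.629 log2 units (unadjusted p = 2.27e-05, adjusted p = 0.186), and Ptpn11D61Y/+ was below MxCre by 2.64 ± 0.636 (adjusted p = 0.164). Without the 3 libraries that held Xist and Y-linked reads together, Hoxa9 was called in S3 against Ptpn11D61Y/+, at 4.14 (adjusted p = 0.0212). The share of all genes called in that fit is not given here. In Ptpn11D61Y/+ against MxCre the value was -2.64. The second value sets 2 Ptpn11D61Y/+ libraries against the 1 MxCre library left, whose spread is assumed to be that of the other groups. Without BM CD11b+ MxCre replicate 2 alone, Hoxa9 (adjusted p = 0.0308) and Hoxa5 (-3.49, adjusted p = 0.0423) were called between the controls with the same limit, beside 13.6% of all genes. Without the library of S3 animal 815 Hoxa3 was called in S3 against MxCre, whose libraries were at 0 counts (adjusted p = 0.0467, with 0.507% of all genes called). Meis1 was higher in all 3 S3 libraries (1.13, 2.09 and 3.14 CPM) than in MxCre (0.858 and 0.398 CPM), by 1.78 ± 0.524 (adjusted p = 0.207).

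The BM CD11b+ library of S3 animal 640 was the highest for all 7 genes among the S3 libraries of that fraction, as it was for 46.4% of all tested genes. It was also the deepest of the 3, with 73163041 counts and 22865 genes detected, against 19772 and 14761 genes in the libraries of animals 540 and 815. It held Hoxa3 at 0.717, Hoxa5 at 1.05, Hoxa7 at 4.57, Hoxa9 at 4.53 and Hoxa10 at 1.06 CPM, with Meis1 at 3.14 and Pbx3 at 14.3 CPM. The other S3 libraries, of animals 540 and 815, held Hoxa7 at 1.15 and 0.873 CPM and Hoxa10 at 0.136 CPM and 0 counts. The stem and progenitor markers of animal 640 summed to 92.1 CPM, against 70.1 to 318 CPM in the other BM CD11b+ libraries. That sum includes Ly6a, which did not follow the sort and was lowest here, at 22.6 CPM against 33.7 to 238 CPM. Kit, at 23.3 CPM, was at the upper end of the 4.78 to 23.3 CPM of this fraction. The HOXA sum of this library, 11.9 CPM, was 13% of the marker sum. This was above the 4.31% to 6.33% of the LSK libraries and the 7.66% of MxCre replicate 1, the next highest of this fraction. Its neutrophil markers summed to 28800 CPM, with Ngp the most abundant, against 96710 to 142700 CPM in the other 6. In spleen CD11b+ cells of the same animal the HOXA sum was 4.84 CPM, within the 1.003 to 5.60 CPM of the other 6 libraries. It was 6.83% of a marker sum of 70.9 CPM, against 1.01% to 2.06% in those libraries. Ly6a was at 3.18 CPM in this spleen library, against 8.22 to 313 CPM in the others. The part of Ly6a in these shares of both organs was not tested.

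**Figure D5:**
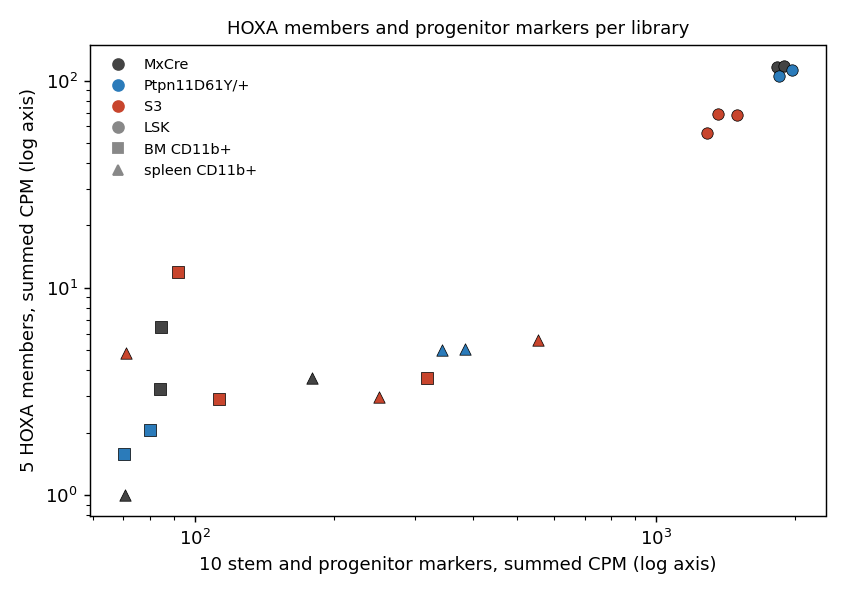
Summed CPM of the 5 HOXA members against summed CPM of 10 stem and progenitor markers in the 21 libraries, both on log axes. Circles are LSK, squares BM CD11b+ and triangles spleen CD11b+ libraries, coloured by genotype. The 3 S3 LSK libraries lie below and to the left of the 4 control LSK libraries, and the BM CD11b+ library of animal 640 has 11.9 CPM of HOXA at 92.1 CPM of markers.

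In spleen CD11b+ cells Hoxa9 was the member called in S3 against MxCre (adjusted p = 0.00987), beside 4.19% of all genes. It had 8, 14 and 36 counts in S3 animals 540, 815 and 640 and 0 counts in both MxCre libraries. Those S3 libraries held 21099, 18353 and 22483 detected genes, and the MxCre libraries 14641 and 19054, and the part of this difference in the call was not tested. Taking 3 counts per library as the limit, the S3 level was at least 3.61-fold higher, and the level itself was 0.275 ± 0.152 CPM (SD, n = 3). The call did not hold without spleen CD11b+ MxCre replicate 1, with the control genotypes pooled (adjusted p = 0.193) or in the fit of the 7 spleen libraries (adjusted p = 0.190). The Ptpn11D61Y/+ libraries held 2 and 7 counts. Hoxa3 was higher in S3, at 0.530, 0.562 and 0.518 CPM against 0 and 3 counts in MxCre (adjusted p = 0.0823), and Hoxa7 at 1.33, 3.37 and 2.88 against 0.966 and 0.458 CPM (adjusted p = 0.101). Hoxa5, Hoxa10, Meis1 and Pbx3 overlapped between S3 and MxCre. Meis1, for example, was at 2.35, 2.23 and 1.86 CPM in S3 and at 0.813 and 3.27 CPM in MxCre, a log2 fold change of 0.07 ± 0.470.

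No member was called in spleen CD11b+ cells of S3 against Ptpn11D61Y/+ (0.00511% of all genes called) or of Ptpn11D61Y/+ against MxCre (5.11%). Without spleen MxCre replicate 2, which leaves 1 MxCre library, Meis1 was called higher in Ptpn11D61Y/+ (2.44, adjusted p = 0.0324, with 2.74% of all genes called). Meis1 was highest in Ptpn11D61Y/+, at 4.23 and 4.52 CPM, above every S3 library (log2 fold change of S3 -1.03 ± 0.457, adjusted p = 0.532). Stem and progenitor markers were also high in those libraries, with sums of 343 and 385 CPM and Kit at 65.4 and 73.2 CPM, and neutrophil markers were low. Their part in the Meis1 level was not tested. Among the other HOX and TALE genes, Hoxb5 was called higher in S3 (adjusted p = 0.0489) and in Ptpn11D61Y/+ (adjusted p = 0.0363) than in MxCre. Tgif1 fell by 2.82 ± 0.717 in S3 against MxCre (adjusted p = 0.0386), Pbx2 by 1.72 ± 0.455 in Ptpn11D61Y/+ against MxCre (adjusted p = 0.0398), and the HOXA9 target Lmo2 rose by 1.71 ± 0.443 in S3 (adjusted p = 0.0414).

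The change from MxCre to S3 was set against that of LSK cells in one term of the fit. For BM CD11b+ minus LSK no member passed and 0% of all genes was called, and the largest difference apart from Hoxa3, whose MxCre group is at 0, was that of Meis1, at 2.58 ± 0.687 log2 units (adjusted p = 0.587). For spleen CD11b+ minus LSK 0.00511% of all genes was called and no member. Hoxa9 came nearest (adjusted p = 0.0721, with MxCre spleen libraries at 0 counts) and was called without the 3 libraries that held both Xist and Y-linked reads (adjusted p = 0.0213, with 0.0288% of all genes called), and Hoxa7 was at 2.36 ± 0.852 (adjusted p = 0.284). All 7 differences were above 0 in spleen and 6 of 7 in BM, beside medians of all genes of 0.31 and 0.17 and 40.3% and 43.5% of all genes below 0.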

How the data were processed

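The authors deposited 1 table of raw read counts per gene (Ensembl mouse identifiers) for each of 21 libraries. Per the submitters' processing notes and the study's methods, stranded mRNA libraries were trimmed with Trim Galore 0.6.5 and aligned to mm10 with STAR 2.5.3a. The counter, annotation release and use of strand were not given in the sources used here. Library totals ran from 34992610 to 104509425 counts (median 69421661). Symbols and positions came from GENCODE M21 for 45143 of 45706 identifiers.

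Counts were tested with edgeR 4.0.16 (robust quasi-likelihood, TMM factors, filterByExpr, R 4.3.3) over 9 groups of fraction and genotype, with 12 residual degrees of freedom and Benjamini-Hochberg adjustment over all 19555 tested genes. A gene was called at an adjusted p under 0.05. In the text, ± after a log2 fold change is its SE. CPM used TMM-scaled library sizes, and log2 CPM a prior count of 2. Nothing in the labels says whether control libraries of a fraction came from separate animals, so p-values measure the spread between these libraries. The study's methods give 3 mice per genotype for CD11b+ cells of S3 and MxCre mice, whereas the labels hold 2 MxCre libraries per organ, and n here is the number of libraries. Alternatives were DESeq2 1.42.0, limma-voom (limma 3.58.1), other scaling, filters and sets of libraries. The steps were tested on simulated data.

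The 7 members and all gene lists were chosen with earlier results of these data known. Named genes were the members, at most 6 called genes of each HOX, TALE, regulator and target list per comparison, the 3 genes most like each member, Ptpn11 and the sort markers. Other genes named were chosen after their values were seen. Libraries of S3 mice with the same number came from the same animal by their labels, which the transcripts of animal 540 went against. Their deviations from group means correlated at -0.096 to 0.407. No column of other samples was present. Values of some single genes of the lists are not reported here.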

Additional observations from a re-analysis of the deposited data

How the results depend on the processing

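The low counts of HOXA genes in CD11b+ cells (0 to 62 for Hoxa3 in S3 BM libraries) limit every call there, and groups of 2 or 3 libraries limit all calls. Where leaving out a library left 1 in a group, that library was assumed to vary like the other groups. Counts below are of members called of 7, and where a count moved the cause was not tested, except that each call lost with at least 10 counts in every library was of a member which that filter removes, so that it was not retested. In LSK cells, S3 against MxCre moved from 0 to 6 and S3 against Ptpn11D61Y/+ from 0 to 7. This was so when the groups compared were fitted alone or with the 7 libraries of the fraction (the latter chosen after seeing the data). The share of all genes called moved too, from 0.0307% and 0.0972% to 26.8% and 29.2% with the groups alone. With the 7 libraries it was 31.3% and 37.1%. The controls moved from 0 to 1 (Pbx3) with the groups compared alone, beside 14.2% of all genes. Among members called, and those of S3 against a control in LSK cells, the log2 fold change that reversed was that of Pbx3 in S3 against MxCre LSK cells, which was 0.043 without MxCre replicate 1 and -0.24 without replicate 2.

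In BM CD11b+ cells DESeq2 called 2 (S3 against MxCre), 1 (S3 against Ptpn11D61Y/+) and 3 (between controls), beside 5.4%, 1.68% and 10.7% of all genes. Without single libraries these were 0 to 1, 0 and 0 to 2. In spleen CD11b+ cells, S3 against MxCre moved from 1 to 0 with at least 10 counts in every library, with the groups compared alone, with both controls together and with the fraction alone, to 2 with limma-voom and 3 with DESeq2 (6.96% and 18.7% of all genes), and ranged from 0 to 1 without single libraries. The spleen controls moved from 0 to 1 with library size alone or limma-voom and 2 with DESeq2 (8.73%, 9.08% and 18.1% of all genes), and from 0 to 1 without single libraries.

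Between fractions, a minimum of 10 counts in every library left 3 called against LSK in MxCre BM, MxCre spleen, Ptpn11D61Y/+ spleen and S3 BM, of 5, 4, 5 and 4 members still tested (46.5%, 48.3%, 18.9% and 38.6% of all genes called). Without single libraries Ptpn11D61Y/+ BM gave 3 to 6 and spleen 2 to 3, S3 spleen 4 to 7, and spleen against BM 0 to 1 in MxCre and in S3. Spleen against BM gave 0 in MxCre with 10 counts or the groups alone, 1 in Ptpn11D61Y/+ with the groups alone, and 0 in S3 with library size alone, 10 counts, the groups alone or limma-voom. Without the 3 libraries holding both Xist and Y-linked reads (chosen after seeing the data) the count was 1 in both BM comparisons with Ptpn11D61Y/+, 4 in S3 spleen against LSK, 0 in S3 spleen against BM and 1 for the spleen minus LSK difference. That difference also gave 1 with no filter, the groups alone or limma-voom and 2 with DESeq2 (4.73% of all genes), and the BM minus LSK difference 2 with DESeq2 (0.789%). Some counts of this and the preceding paragraph have no share of all genes called beside them, here or above. Those counts have no background and are not read as results about the members.

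With a replicate block, S3 spleen against LSK gave 4 and spleen against BM 0. The control numbers pair nothing in the labels (correlations -0.173 to 0.0585). With them as a block the counts were 1 (BM) and 2 (spleen) between controls, 0 in MxCre and 4 in Ptpn11D61Y/+ for spleen against BM. The shares of all genes called with this block are not given here, so these counts have no background beside them. Of log2 fold changes not called, 38 were called by some alternative, and over all alternatives 1375 of 1438 such values kept their sign.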

Other observations

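The genes whose log2 CPM over the 21 libraries was most like that of a member were named as a description. The libraries fall into LSK and CD11b+ sets and share depth and fraction, so that these values mostly record the gap between fractions. Hoxa7 was most like A230050P20Rik (Pearson's r = 0.983), Telo2 (0.978) and Smad5 (0.971). Meis1 was most like Tmem260 (0.975), Dlg4 (0.968) and Cul7 (0.967), and Hoxa3 most like Zfp52 (0.969), Zfp664 (0.966) and Zdhhc8 (0.958). Hoxa10 was most like Ocrl (0.961), Nlgn2 (0.958) and Dpy19l3 (0.955), and Hoxa5 most like Col4a1 (0.957), Prpf40b (0.950) and Ggcx (0.941). Hoxa9 was most like Slc19a1 (0.946), Wdr34 (0.944) and Pofut1 (0.944). Pbx3 had weaker partners, of which the nearest was another TALE gene, Meis3 (0.798), followed by Maf (0.793) and Myo1e (0.783).

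Among the members, Hoxa7 and Meis1 were most alike (r = 0.933), and Hoxa5 and Hoxa9 least alike of the HOXA genes and Meis1 (0.643). Pbx3 ran from -0.222 to -0.542 with the other 6 members. In BM CD11b+ cells of MxCre mice, Hoxa5 had 103 counts in replicate 1 and 26 in replicate 2, and in spleen CD11b+ cells 107 and 20, so that replicate 1 was the high one in both organs.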
